A study of Mus musculus with 2 samples.

Results

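Calcium and sodium channel subunit genes were described by DNase-seq, in which nuclei are treated with DNase I and the places where accessible DNA was cut are read by sequencing. The tissue was cerebellum of male mice aged 8 to 10 months from The Jackson Laboratory, of the F1 cross B6CASTF1/J between B6 and CAST. Members were all protein-coding genes of the mm10 GENCODE annotation whose symbol begins with Cacn, or with Scn followed by a digit, which gave 40 of 21938 coding genes on the autosomes and sex chromosomes, 26 Cacn and 14 Scn genes. The rule used no measured value, but it was chosen with earlier results of these data known. The 2 libraries form 1 group of 2 biological replicates with no treatment. Each was made from a pool of 2 cerebellum biosamples, and whether the pools share animals is not stated in the labels. The spread between replicates may therefore be in part technical. Whole tissue holds many cell types, so a weak peak in all cells and a strong one in few cells cannot be told apart, and neither parental allele was resolved. With 1 group there is no contrast, and no test was run.

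Voltage-gated calcium channels consist of a pore-forming alpha1 protein with an intracellular beta subunit and an extracellular alpha2delta subunit. The L-type pores couple depolarisation to contraction and gene regulation, the P/Q-, N- and R-type pores trigger transmitter release, and the T-type pores open near rest. Most genes named Cacng encode TARPs, which carry AMPA receptors to synapses, while Cacng1 and Cacng6 encode true calcium channel subunits. Voltage-gated sodium channels have a pore-forming alpha protein and single-pass beta subunits, and carry the upstroke of the action potential. In the cerebellum, mutations of Cacna1a, Cacna2d2, Cacnb4, Cacng2 and Scn8a cause ataxia in mice.

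A start peak is a peak of the authors' stricter list that overlaps the 1 kb either side of any annotated transcript start of a gene. Peak height is the authors' signal, a coverage measure of unstated scale. Over the 12257 coding genes with a start peak in both replicates, the median log2 ratio of replicate 1 over replicate 2 was 0.55, and the SDs below include that shift. The stricter lists held 61776 peaks in replicate 1 and 71141 in replicate 2, and read numbers were not used here. Signal moved in whole steps, and if a step is 1 cut, the median peak held 196 cuts in replicate 1 and 152 in replicate 2. All 6 granule cell markers examined had a start peak in both replicates, as did 2 of 4 Purkinje, 2 of 4 astrocyte and 1 of 4 oligodendrocyte markers. The Purkinje markers Pcp2 and Car8 and all 3 microglia markers had none in either replicate.

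Sequences at the strongest start peaks are shown for 8 classes, to set CpG-rich 5′ ends beside CpG-poor internal sites. For each class the member with the highest mean signal was taken among those with an entry in the RefSeq promoter table and at least 100 bases of the peak outside annotated UTRs, and the bases are those of the RefSeq GRCm38 (mm10) genome. Of the 40 members, 30 matched that table by symbol. Of those that did not, Cacna1a, Cacna1g, Cacna1h, Cacna2d4, Cacng1, Cacng4, Scn3a and Scn3b are named only. Sequences run 5′ to 3′ on the strand of the gene, and capitals mark bases that lie in footprints of both replicates. A footprint is a short stretch protected from cutting inside a cut region. The stretches shown are the peaks, or their parts outside UTRs and of at most 300 bases, of Cacna1b (chr2:24763201-24763380, minus strand), Cacna1i (chr15:80287127-80287237, plus), Cacng7 (chr7:3332021-3332200, plus), Scn8a (chr15:100870381-100870520, plus), Cacna1c (chr6:118705871-118706170, minus), Cacna2d1 (chr5:16024841-16024940, plus), Cacnb4 (chr2:52558568-52558720, minus) and Scn2b (chr9:45118641-45118860, plus).
Cacna1b: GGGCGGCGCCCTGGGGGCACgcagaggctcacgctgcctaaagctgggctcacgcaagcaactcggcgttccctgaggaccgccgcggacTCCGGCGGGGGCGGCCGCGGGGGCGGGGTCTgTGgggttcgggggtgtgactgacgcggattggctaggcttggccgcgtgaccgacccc
Cacna1i: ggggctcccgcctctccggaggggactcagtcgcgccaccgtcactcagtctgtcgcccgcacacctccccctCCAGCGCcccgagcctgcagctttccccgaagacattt
Cacng7: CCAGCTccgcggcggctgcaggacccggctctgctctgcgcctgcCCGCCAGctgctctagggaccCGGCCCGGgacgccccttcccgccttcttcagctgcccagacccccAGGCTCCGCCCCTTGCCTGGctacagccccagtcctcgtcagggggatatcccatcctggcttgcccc
Scn8a: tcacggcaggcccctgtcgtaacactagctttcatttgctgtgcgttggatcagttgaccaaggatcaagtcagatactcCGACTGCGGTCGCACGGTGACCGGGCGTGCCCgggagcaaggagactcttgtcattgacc
Cacna1c: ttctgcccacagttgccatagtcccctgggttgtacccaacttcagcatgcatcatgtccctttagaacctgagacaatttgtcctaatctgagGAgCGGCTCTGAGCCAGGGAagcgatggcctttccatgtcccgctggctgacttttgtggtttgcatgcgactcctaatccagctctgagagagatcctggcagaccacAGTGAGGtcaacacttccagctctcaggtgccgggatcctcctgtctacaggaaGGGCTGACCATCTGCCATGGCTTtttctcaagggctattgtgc
Cacna2d1: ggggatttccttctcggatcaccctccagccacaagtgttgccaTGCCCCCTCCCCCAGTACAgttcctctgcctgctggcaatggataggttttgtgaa
Cacnb4: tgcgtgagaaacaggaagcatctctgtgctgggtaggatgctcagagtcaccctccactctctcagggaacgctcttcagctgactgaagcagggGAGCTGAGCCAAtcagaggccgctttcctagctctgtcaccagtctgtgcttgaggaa
Scn2b: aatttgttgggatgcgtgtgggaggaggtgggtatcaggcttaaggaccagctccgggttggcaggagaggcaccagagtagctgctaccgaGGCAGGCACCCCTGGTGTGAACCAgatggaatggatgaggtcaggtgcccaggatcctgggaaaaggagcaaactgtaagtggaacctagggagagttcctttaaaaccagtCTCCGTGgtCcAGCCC

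The Cacna1b stretch, centred at -138 bp from the nearest start, was 74.4% G and C with 22 CpG in 180 bp, and 53 of its bases (29.4%) lay in footprints of both replicates. Its capitals hold or touch 3 matches to the SP/KLF motif GGGCGG, and those of Cacng7, with 12 CpG in 180 bp, hold or touch 1. The Cacna1c and Scn2b stretches, by contrast, lay 1127 and 869 bp downstream of a start, held 5 CpG in 300 bp and 4 in 220 bp, and each had a match to the E-box CAGATG, the form bound by NEUROD1 and ATOH1, touching the capitals. The Cacna2d1 stretch held 1 CpG in 100 bp and the Cacnb4 stretch 3 in 153 bp.

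Of the 40 members, 30 (75%) had a start peak in replicate 1, against 58.4% of all coding genes, and 23 (57.5%) had one in replicate 2, against 57.2%. All 23 of replicate 2 were also open in replicate 1, and the share in both, 57.5%, was near the 55.9% of all coding genes. In the authors' longer list, which reaches a false discovery rate (FDR) of 0.05 instead of 0.001, 32 members (80%) had a start peak in replicate 1, against 63.4% of coding genes, and 29 (72.5%) in replicate 2, against 62.2%. The same number, 29 (72.5%), had one in both, against 60.5%. The share of members was thus near that of coding genes in replicate 2 and in both with the stricter list, and above it in replicate 1 and throughout the longer list. All 3 P/Q-, N- and R-type pores, all 4 calcium beta subunits and all 4 brain sodium pores had a start peak in both replicates, as did 2 of 3 T-type pores, 3 of 4 alpha2delta and 3 of 4 sodium beta subunits. Only 1 of 4 L-type pores, 2 of 8 gamma and TARP genes and 1 of 6 sodium pores of muscle, sensory neurons or atypical kind did. With the longer list these counts were 3 of 4 L-type pores, 4 of 8 gamma and TARP genes and 2 of 6 such sodium pores. Members of a class are not replicates of each other.

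**Figure D1:**
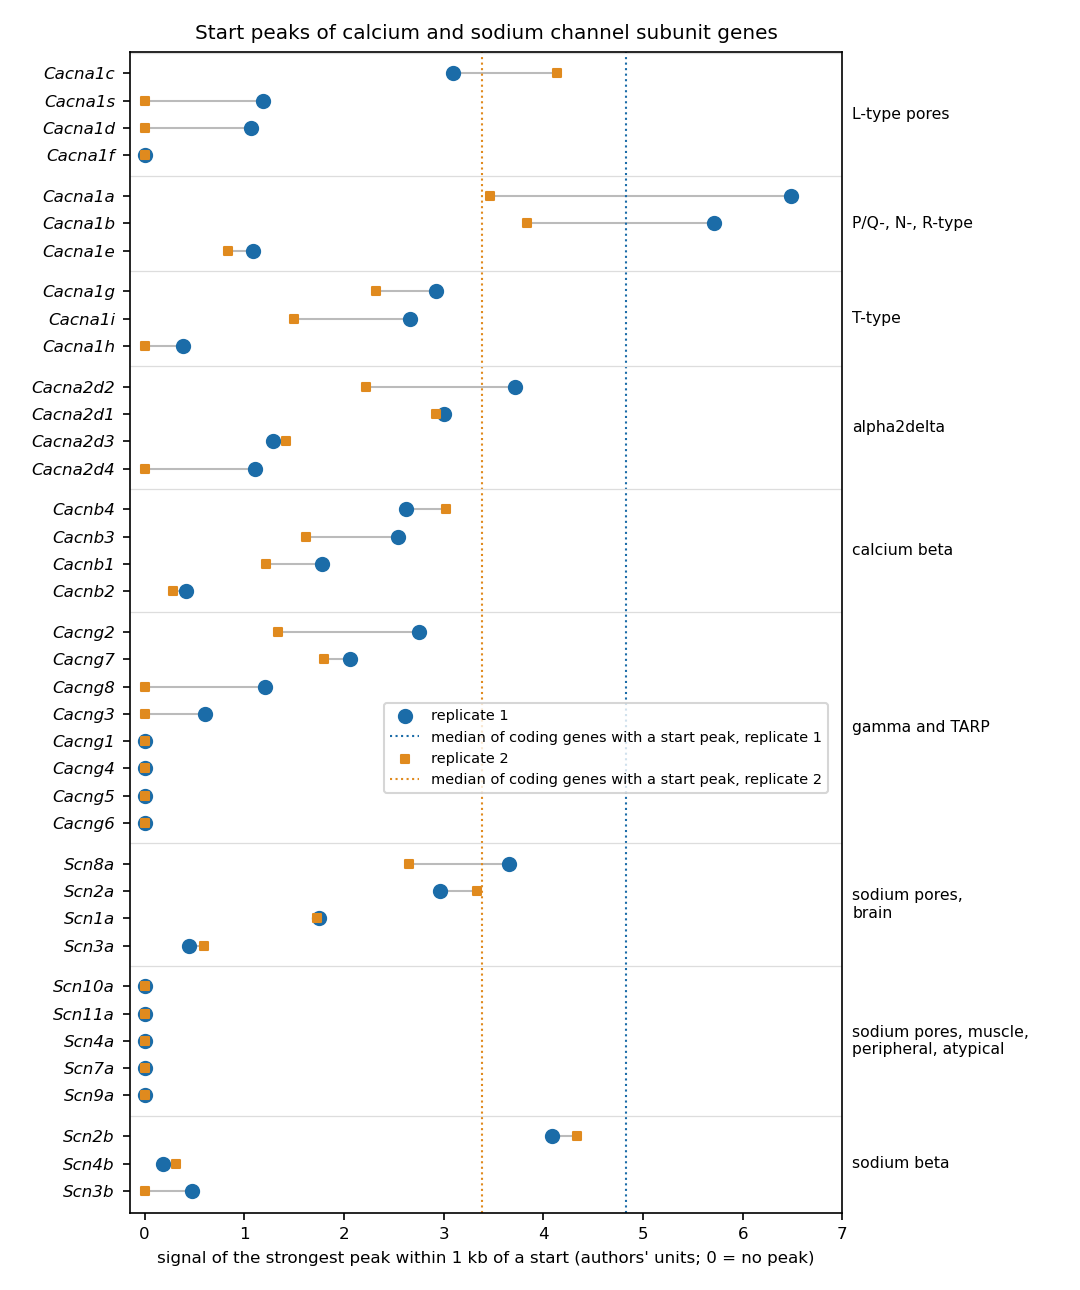
Signal of the strongest start peak of a member (x axis, authors' units, 0 where there was no peak) in replicate 1 (circles) and replicate 2 (squares), grouped by subunit class, with dotted lines at the median of coding genes that have a start peak (4.83 and 3.38). The plot shows 38 members, of which most lie left of both lines and 10 lie at 0 in both replicates.

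Start peaks were modest in height. The median over coding genes with a start peak was 4.83 in replicate 1 and 3.38 in replicate 2, and of the members only Cacna1a and Cacna1b lay above it in replicate 1. In replicate 2, Scn2b, Cacna1c, Cacna1b and Cacna1a did.

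Among the pores of transmitter release, Cacna1a, the P/Q-type pore of Purkinje and granule cells (chromosome 8, 84388440 to 84640246), had the highest mean start signal of all members, with 6.48 in replicate 1 and 3.46 in replicate 2 (mean 4.97 ± 2.13, SD, n = 2). In replicate 2 alone, Scn2b, Cacna1c and Cacna1b were higher. That peak lay near the 3′ end of the gene, at the start of a noncoding transcript 99.5% along its span. At the start of its longest coding transcript, Cacna1a had 2.50 and 1.67. Cacna1b, the N-type pore (chromosome 2, 24603887 to 24763152), had 5.71 and 3.84 (mean 4.77 ± 1.32) at its 5′ end, which made it the highest member at the start of the longest coding transcript in replicate 1. Cacna1e, the R-type pore, had 1.08 and 0.841, both at a coding start 32.0% along its span.

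The T-type pores had their start peaks at their 5′ ends. Cacna1g, which carries the T-type current of Purkinje and deep nuclear neurons, had 2.92 in replicate 1 and 2.32 in replicate 2. Cacna1i had 2.66 and 1.5. Cacna1h reached 0.385 in replicate 1 and had no peak in replicate 2, where no interval of its start windows was listed with an FDR under 0.05.

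Of the L-type pores, Cacna1c, the main L-type channel of heart and brain (chromosome 6, 118587240 to 119196418), had 3.09 in replicate 1 and 4.13 in replicate 2. These values came from the peak printed above, centred 1127 bp downstream of the start of a retained-intron transcript 80.3% along the gene. With the middle of the peak required in the 1 kb window, that peak drops out and the mean was 3.24. A coding start 116 kb from the 5′ end had 2.70 and 3.78, while the start of the longest coding transcript had 1.96 in replicate 1 and no peak in replicate 2. Cacna1d, the L-type pacemaker channel, had 1.07 in replicate 1 alone. Cacna1s, the pore of skeletal muscle, had 1.18 in replicate 1. The middle of that peak was 846 bp from a start of Ascl5 and 1100 bp from its own. A stricter peak of replicate 2 overlapped that peak but lay outside the 1 kb window. Cacna1s thus counts as having a start peak in replicate 1 alone, and with 2 kb windows it had one in both. Cacna1f, the pore of retinal photoreceptors, had none in either replicate. With 2 kb windows Cacna1f had a peak in both, with a mean signal of 2.77.

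All alpha2delta genes had a start peak in replicate 1. Cacna2d2, the gene mutated in ducky mice, had 3.71 in replicate 1 and 2.23 in replicate 2 at its 5′ end. Cacna2d1, which binds gabapentin, had 3.0 and 2.92 at a retained-intron start 91.0 kb into the gene, in the CpG-poor stretch printed above, against 1.53 and 1.07 at its main start. Cacna2d3 had 1.29 and 1.42, also at a retained-intron start, 388 kb in. Cacna2d4, known from the retina, had 1.11 in replicate 1 alone, 197 bp from a start of the neighbouring gene Lrtm2.

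The beta subunits traffic and gate the pores, and Cacnb4, mutated in lethargic mice, was the highest of them. It had 2.63 in replicate 1 and 3.02 in replicate 2 at a coding start 118 kb into the gene, the printed stretch, and 1.97 and 1.47 at its upstream start. Cacnb3 had 2.54 and 1.62, and Cacnb1, the partner of the muscle pore, had 1.78 and 1.22. Cacnb2, a beta subunit of heart, had the lowest values, 0.414 and 0.284, at a noncoding start, and its strongest peaks of the 2 replicates lay apart.

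Among the 8 gamma and TARP genes, Cacng2 and Cacng7 stood out. Cacng2 encodes stargazin, which brings AMPA receptors to granule cell synapses, and had 2.75 in replicate 1 and 1.34 in replicate 2. Cacng7, another TARP of the cerebellum, had 2.06 and 1.80, in peaks centred at -915 and -825 bp from its start. The TARPs Cacng8 and Cacng3 had 1.21 and 0.607 in replicate 1 alone. Cacng1 and Cacng6, the muscle-type subunits, and the TARPs Cacng4 and Cacng5 had no start peak in either replicate.

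Brain sodium pores were all open, at unequal heights. Scn8a, the pore of the axon initial segment that carries resurgent current in Purkinje cells, had 3.65 in replicate 1 and 2.65 in replicate 2 at its 5′ end. Scn2a, the pore of early axons and of granule cell fibres, had 2.96 and 3.34 at starts 47.9 to 49.7 kb into the gene, and 1.15 and 1.75 at its first start. Scn1a, the gene of Dravet syndrome, had 1.75 and 1.73 at its upstream start and 1.67 and 1.69 at a start 30.8 kb further in, nearly equal values at both. Scn3a, the pore of embryonic brain, was the lowest with 0.450 and 0.601.

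Start peaks were rare among the sodium pores of other tissues. Scn4a of skeletal muscle, Scn9a, Scn10a and Scn11a of sensory neurons, and Scn7a, an atypical sodium sensor, had no start peak in either replicate. In the longer list Scn9a had 0.350 and 0.202.

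The sodium beta subunits, adhesion-like partners of the pores, included a strong member. Scn2b had 4.09 in replicate 1 and 4.34 in replicate 2, the highest mean of all Scn genes (4.21 ± 0.174, n = 2), from an intronic peak at the same place in both. With windows of 500 bp, which leave that peak out, its mean was 0.781, below the 3.15 of Scn8a and the 2.98 of Scn2a. Scn4b, whose protein blocks the open pore of Purkinje cells, had 0.186 and 0.316 in peaks that did not overlap. Scn3b had 0.478 in replicate 1 alone.

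In 8 of the 10 members without a start peak in either replicate (Cacna1f, Cacng1, Cacng4, Cacng6, Scn10a, Scn11a, Scn4a and Scn7a), no interval within 1 kb of a start was listed with an FDR under 0.05 in either replicate. Cacng5 reached 0.0278 in replicate 1 alone, and Scn9a reached 0.000613 and 0.00162. Of the 7 genes with a start peak in replicate 1 alone, Cacna1d reached 0.00113 in replicate 2, Cacng8 0.00107, Cacng3 0.0027 and Cacna2d4 0.012. Scn3b and Cacna1h had no listed interval in that replicate. Cacna1s reached 3.84e-07 in replicate 2. An FDR under 0.001 in a window thus did not always come with a stricter peak there, as at Scn9a in replicate 1. At Cacna1s a stricter peak of replicate 2 lay outside the window, overlapping the start peak of replicate 1. In replicate 2, Cacna1d and Cacng8 lay just above 0.001.

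Many of the start peaks lay at starts other than that of the longest coding transcript. With that start alone, 26 of the 40 members had a peak in replicate 1, against 54.4% of coding genes. In replicate 2, 19 of 40 did, against 53%, and the same 19 in both, against 51.7%. The share of members was thus above that of coding genes in replicate 1, and slightly below it in replicate 2 and in both. With 40 members the latter gaps amount to few genes. Cacna1c, Cacna2d3 and Cacnb2 were among the members no longer called in both replicates. Taking starts within 1 kb of each other as a group, the members had 139 groups, of which 33 had a peak in both replicates, 27 of them with a coding transcript. Of the 23 members open in both replicates, 13 had their highest group at the main start and 10 elsewhere, 6 of these at a group with noncoding transcripts alone. Of the 83 start peaks of members in replicate 1, 49 (59.0%) overlapped a peak of replicate 2, against 80.5% for all coding genes. Of the 64 in replicate 2, 52 overlapped a peak of replicate 1, against 79.6%. Some peaks of a list overlap each other, as at Cacna1b, Cacna2d1 and Cacnb4, so these are counts of peaks and not of separate sites.

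**Figure D2:**
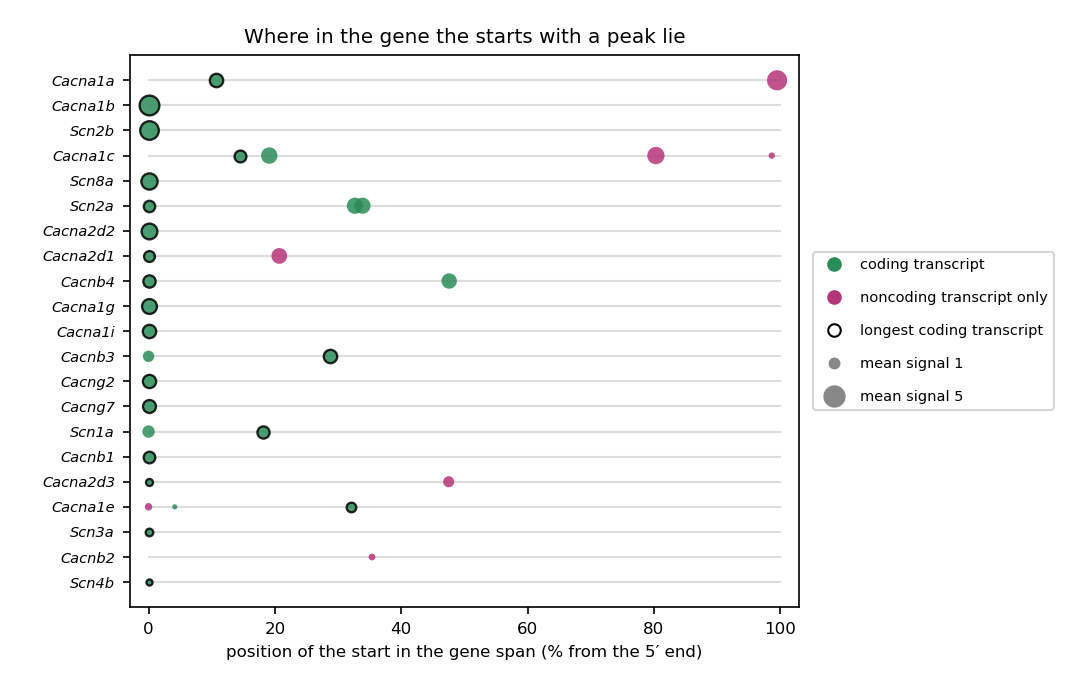
Position along the gene, as a percentage of its span from the 5′ end (x axis), of each group of starts with a peak in either replicate, for 21 of the members open in both, ordered by start signal. Circle area grows with the mean signal, colour gives coding or noncoding transcripts, and a black rim marks the start of the longest coding transcript; the largest Cacna1a circle lies at 99.5% and the largest Cacna1c circle at 80.3%.

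CpG content at the main start, measured in the 1 kb around it as the ratio of observed to expected CpG, was higher in open members. Its median was 0.790 in the 23 members open in both replicates, 0.365 in the 7 open in 1 and 0.319 in the 10 open in neither, against 0.737, 0.513 and 0.203 for all coding genes of the same states. Of the 4 brain sodium pores, 3 departed from this. Scn2a at 0.408, Scn3a at 0.381 and Scn1a at 0.443 were CpG-poor and open, while Scn8a had the highest ratio of all members, 1.02. Scn2b had 0.226, but its only start peak in replicate 1 lay outside the sequence measured. Open here means a peak at any start, while CpG was measured at the main start. Cacna1c, Cacna2d3 and Cacnb2 counted as open in both without a peak at the main start in both. In the other direction, Cacng4 had 0.930 with no start peak in either replicate.

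**Figure D3:**
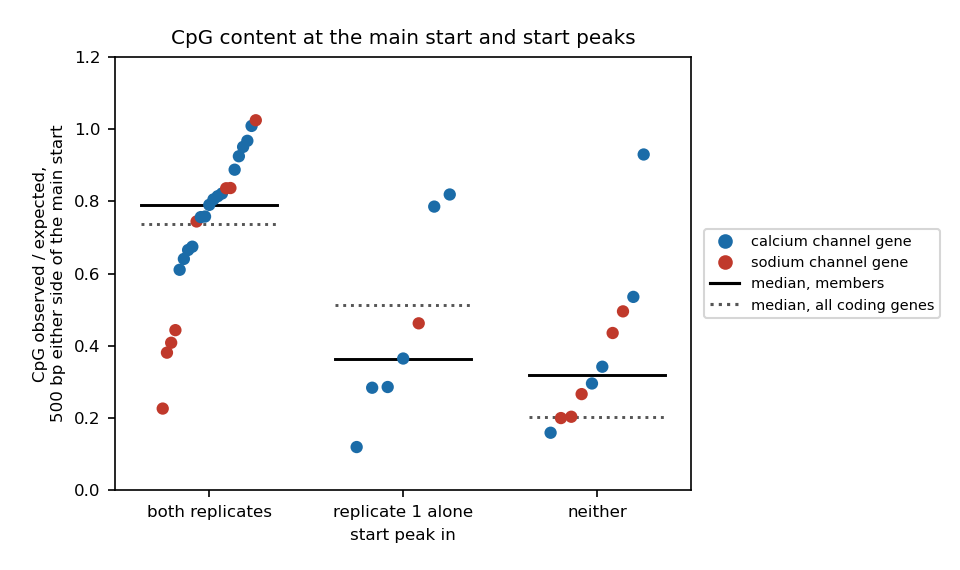
Ratio of observed to expected CpG in the 1 kb around the main start (y axis) for members with a start peak in both replicates, in replicate 1 alone or in neither, with solid lines at the members' medians (0.790, 0.365 and 0.319) and dotted lines at those of all coding genes. The 4 lowest points among members open in both are sodium channel genes.

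In the RefSeq promoters, which run from 250 bases before to 50 after a start, 15 of 30 members (50%) held the SP/KLF motif GGGCGG on either strand, against 51.0% of 16522 coding genes. No member held the ETS motif CCGGAAG, the CRE TGACGTCA or the NRF1 motif, held by 13.4%, 2.64% and 2.09% of all, nor the RE1 or MEF2 motifs, held by 0.0424% and 0.575%. The CTCF motif was found in Cacnb1 and Scn2a, against 0.678% of all, and the TATA box TATAAA in Cacna1d and Scn2a (6.67% of members, 14.3% of all). The E-box CAGATG occurred in 6 members (20%, against 16.4%) and the NFI site TGCCAA in 8 (26.7%, against 15.3%). Matches are of letters alone, with no mismatch, and a missing match says nothing of the factor.

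RE1 is the element through which the repressor REST holds neuronal genes off outside neurons, and Scn2a is a textbook target. Within 1 kb of the starts, 2 members (5%) held a match, against 0.369% of coding genes. A gene with many starts has more sequence searched. The Scn2a match lies at -807 bp from its first start (chr2:65619964-65619980, plus strand). The Cacna1d match (chr14:30049516-30049532, plus strand) lies far from the 5′ end of its gene. It is 733 bp downstream of the start of a retained-intron transcript 97.7% along the span. Neither match was overlapped by a footprint or a stricter peak in either replicate. Both are printed in capitals throughout, since the whole run is the match.
Scn2a RE1: TTCAGCACCACGGACAG
Cacna1d RE1: TTCAGAACCTGGGACAG

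Footprints lay within 1 kb of a start in 30 members (75%) in replicate 1, against 61.7% of coding genes. In replicate 2 they did in 26, against 59.6%. All 26 had them in both replicates (65%), against 58.5%. Cacnb3 had the most in replicate 1, 40 against 18 in replicate 2, followed by Cacna1c with 35 and 29 and Cacnb4 with 33 and 25. Cacna1a had 31 in each. Scn4b had a start peak and no footprint within 1 kb in either replicate, although its peak of replicate 2, which reaches beyond that window, held 1. Cacna1d (20 and 14), Cacna2d4 (10 and 2), Cacng3 (6 and 1) and Cacng8 (2 and 3) had footprints in both replicates and a start peak in replicate 1 alone. The 453 footprints of members in replicate 1 and 382 in replicate 2 were shared at 38.2% and 46.9%, against 56.6% and 62.1% for those of all coding genes. Their median length was 9 bp, against 11 bp. Not all lay in peaks, since 63.8% in replicate 1 and 50% in replicate 2 overlapped a stricter peak, against 65.9% and 67.2%. At Cacnb3 17 and 6 did, at Cacna1a 18 and 9, and at Cacna1d 7 and 0. At Cacna2d1, by contrast, 30 of 30 and 25 of 28 did. Of the footprints of members, 12.1% in replicate 1 and 9.95% in replicate 2 overlapped an SP/KLF match, against 14.4% and 13.4%, and 2.21% and 2.62% an NFI site, against 1.31% and 1.73%.

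Distal peaks, whose middle lies over 1 kb from every annotated start, were numerous around these genes. At least 1 lay within 50 kb of a start in 36 members (90%) in replicate 1, against 67.5% of coding genes, and in 38 (95%) in replicate 2, against 72.6%. Members averaged 7.33 ± 0.424 (SD, n = 2), against 2.99 in replicate 1 and 3.22 in replicate 2 over all coding genes. Members are long genes, with a median length of 129.7 kb among those with a start peak in both replicates, against 25.6 kb for all coding genes of that state, and starts spread along a gene widen the sequence covered. Within gene spans of 100 kb or more, the median was 2.50 distal peaks per 100 kb in replicate 1 and 2.84 in replicate 2 for 20 members, against 0.974 and 1.76 for 2492 coding genes.

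**Figure D4:**
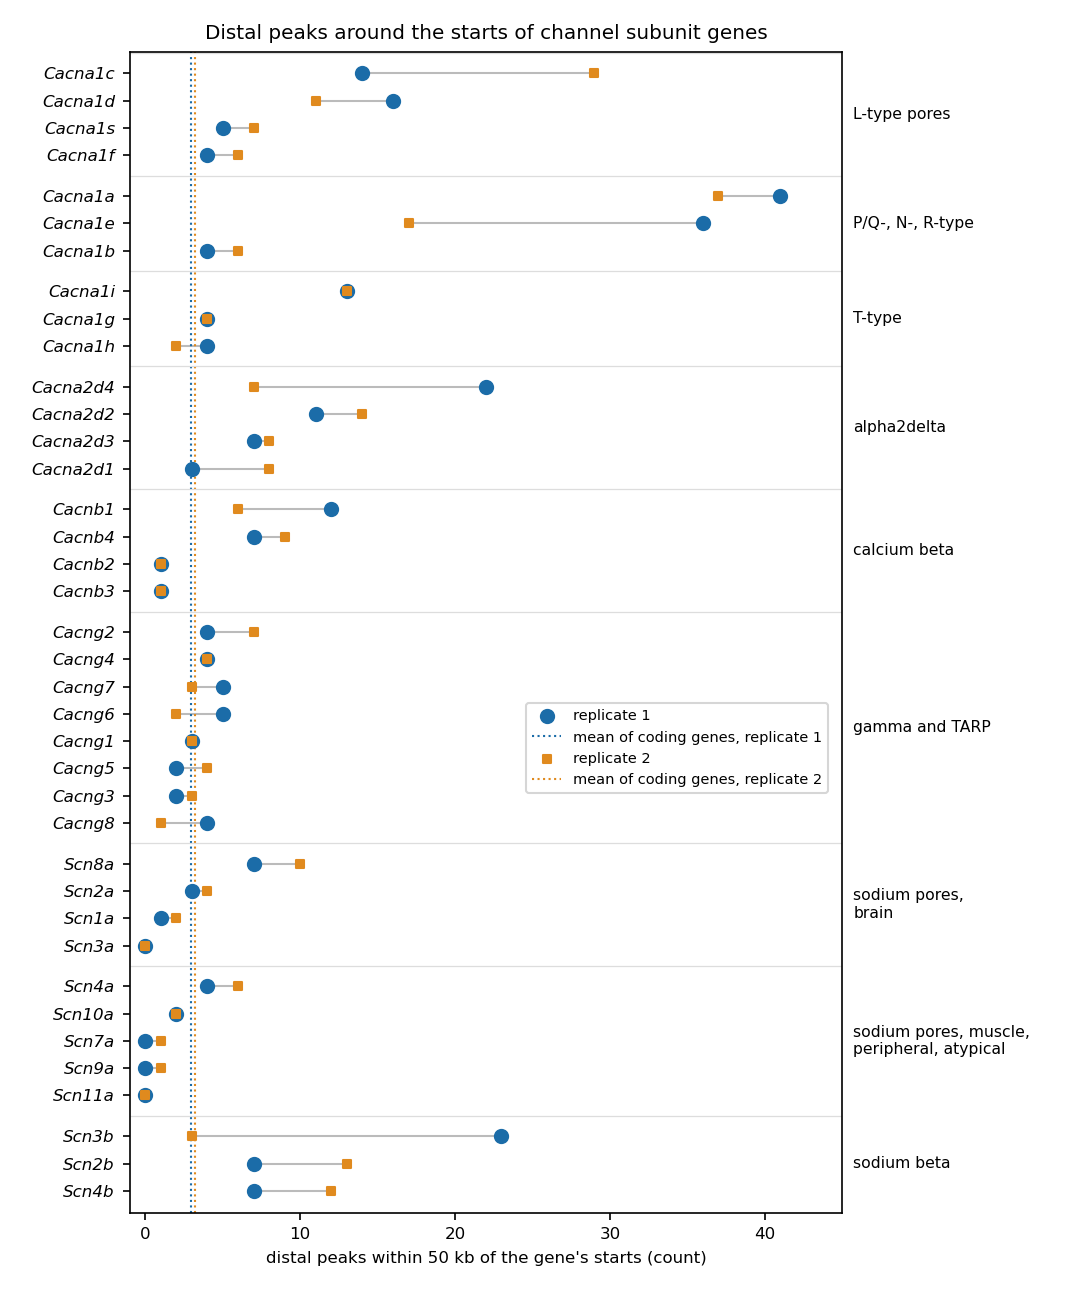
Number of distal peaks within 50 kb of the starts of 38 members (x axis) in replicate 1 (circles) and replicate 2 (squares), by subunit class, with dotted lines at the means of all coding genes (2.99 and 3.22). Cacna1a has the most in both replicates, and Cacna1e, Cacna1c, Cacna2d4 and Scn3b show the widest gaps between replicates.

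Cacna1a had 41 in replicate 1 and 37 in replicate 2, more than 99.8% and 99.9% of coding genes. Cacna1e had 36 and 17, Cacna1c 14 and 29, and Cacna2d4 22 and 7. Cacna1d had 16 and 11. Scn3a and Scn11a had none in either replicate, and Scn7a and Scn9a had 1 in replicate 2 alone. By class the mean was 23.5 for P/Q-, N- and R-type pores, 11.5 for both L-type pores and sodium beta subunits, 10.0 for alpha2delta, 6.67 for T-type pores, 4.75 for calcium beta subunits, 3.50 for gamma and TARP genes, 3.38 for brain sodium pores and 1.67 for the other sodium pores. Classes were uneven within, since Cacna1b had 4 and 6 beside Cacna1a and Cacna1e, and Scn8a had 7 and 10 among brain sodium pores, whose mean was close to that of all coding genes. With peaks that overlap one of the other replicate alone, the mean was 13.5 for P/Q-, N- and R-type pores, 8 for L-type pores, 5.63 for sodium beta subunits, 5.25 for alpha2delta, 4.67 for T-type pores, 3.25 for calcium beta subunits, 2.75 for brain sodium pores, 2.38 for gamma and TARP genes and 1 for the other sodium pores. Scn2b and Scn4b count the same 7 shared peaks in each replicate.

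Where replicates differed most, the unshared peaks were mostly weak. Of the 36 Cacna1e peaks in replicate 1, 25 had no counterpart in replicate 2, with a median signal of 0.178 against 1.89 for the 11 shared ones. A run of 28 peaks of replicate 1 alone covered 21.7 kb of the gene (chr1:154846661-154868356). Similar runs of at least 10 peaks, with middles no more than 4 kb apart, lay in Cacna2d4 (15 peaks over 12.0 kb, chr6:119300199-119312232) and Cacna1a (12 over 12.1 kb, chr8:84393376-84405460). A run of 28 lay beyond the end of Scn3b, in the neighbouring gene Gramd1b (18.1 kb, chr9:40316941-40335040). Replicate 1 had 211 such runs in the genome, holding 5.15% of its peaks, and replicate 2 had 155, with 3.09%, but none within 50 kb of a member's start. Of the 23 distal peaks near Scn3b in replicate 1, 1 was shared. The 22 unshared ones had a median signal of 0.575 and reached 1.98, beside a median of 1.11 for all distal peaks of replicate 1. At Cacna1c the gap ran the other way, since 16 of its 29 peaks in replicate 2 had no counterpart, with a median signal of 0.493 against 2.37 for the shared ones. The cause of the runs was not tested.

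With shared peaks alone, members averaged 4.48 distal peaks in each replicate, against 1.89 for all coding genes in each. Cacna1a then had 26 and 25, Cacna1c 14 and 13, and Cacna1e 11 and 11. Scn3b had 1 and 2. Members' distal peaks numbered 288 in replicate 1 and 263 in replicate 2, and 167 of each were shared, which is 58.0% and 63.5%, against 72.5% and 58.2% of all distal peaks. Of them 67.4% and 68.8% lay inside a member, 181 and 171 in introns and 13 and 10 in exons. Neighbouring members share some of them, with 16 in replicate 1 and 18 in replicate 2 near more than 1 member, as around Scn2b and Scn4b on chromosome 9.

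The strongest shared distal peaks included sites in introns of Cacna1a, Cacna1i and Scn2a. The Cacna1a peak (chr8:84635101-84635360) had 9.25 in replicate 1 and 8.37 in replicate 2, at 3761 bp from the nearest start. A second strong peak near Cacna1a (chr8:84663961-84664200, 9.96 and 7.32) lay between coding genes, 1228 bp from a start of Ier2. Those of Cacna1i (chr15:80327841-80328040, plus strand; 9.11 and 7.92), Scn2a (chr2:65658481-65658700, plus; 5.62 and 7.09) and Cacna1d (chr14:30218181-30218460, minus; 5.47 and 6.37) exceeded every start peak of their own gene and are printed as examples of intronic sites with several footprints, marked as before.
Cacna1i intron: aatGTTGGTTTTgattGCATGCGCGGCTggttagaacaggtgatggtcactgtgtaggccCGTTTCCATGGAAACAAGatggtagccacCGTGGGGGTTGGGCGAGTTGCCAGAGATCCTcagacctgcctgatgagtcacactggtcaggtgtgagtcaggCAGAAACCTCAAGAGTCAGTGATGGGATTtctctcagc
Scn2a intron: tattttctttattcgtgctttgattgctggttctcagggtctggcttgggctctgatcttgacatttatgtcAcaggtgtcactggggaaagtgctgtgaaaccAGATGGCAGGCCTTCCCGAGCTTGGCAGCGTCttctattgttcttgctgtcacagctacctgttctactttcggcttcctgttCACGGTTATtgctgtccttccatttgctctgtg
Cacna1d intron: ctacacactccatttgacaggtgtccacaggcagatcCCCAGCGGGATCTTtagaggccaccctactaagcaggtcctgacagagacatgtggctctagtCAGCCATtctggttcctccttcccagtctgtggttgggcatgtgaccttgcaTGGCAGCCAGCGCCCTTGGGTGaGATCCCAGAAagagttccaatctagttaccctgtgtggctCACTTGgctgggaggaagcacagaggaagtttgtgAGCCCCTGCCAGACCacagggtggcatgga

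The Cacna1i site had 6 footprints in replicate 1 and 4 in replicate 2, and 99 of its 200 bases (49.5%) lay in footprints of both. Of the motifs searched, none matched it, nor the Cacna1d site, where 74 of 280 bases were in footprints of both. The Scn2a site, 10096 bp from an internal start, had an E-box CAGATG and an NFI site TGCCAA that both touched its capitals. It holds 5 CpG in 220 bp.

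The balance between replicates differed among members. Against the median log2 ratio of 0.55 (SD 0.33 over coding genes), Cacna1c had a ratio of -0.42, which is -0.97 from the median, at percentile 1.22 of coding genes, with a counting error of 0.089. Cacnb4, Scn2a, Cacna2d3 and Scn2b also lay more than 1 SD below the median, with log2 ratios of -0.20, -0.17, -0.13 and -0.08. So did Scn1a at 0.01, Cacna2d1 at 0.04 and Cacng7 at 0.20. Cacng2 at 1.04 and Cacna1a at 0.90 lay more than 1 SD above it. Scn4b and Scn3a had ratios of -0.77 and -0.42 on few cuts, with counting errors of 0.35 and 0.23. For Scn4b, Scn2a and Cacnb2 the strongest peaks of the replicates did not overlap, so their ratios do not compare a single site.

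**Figure D5:**
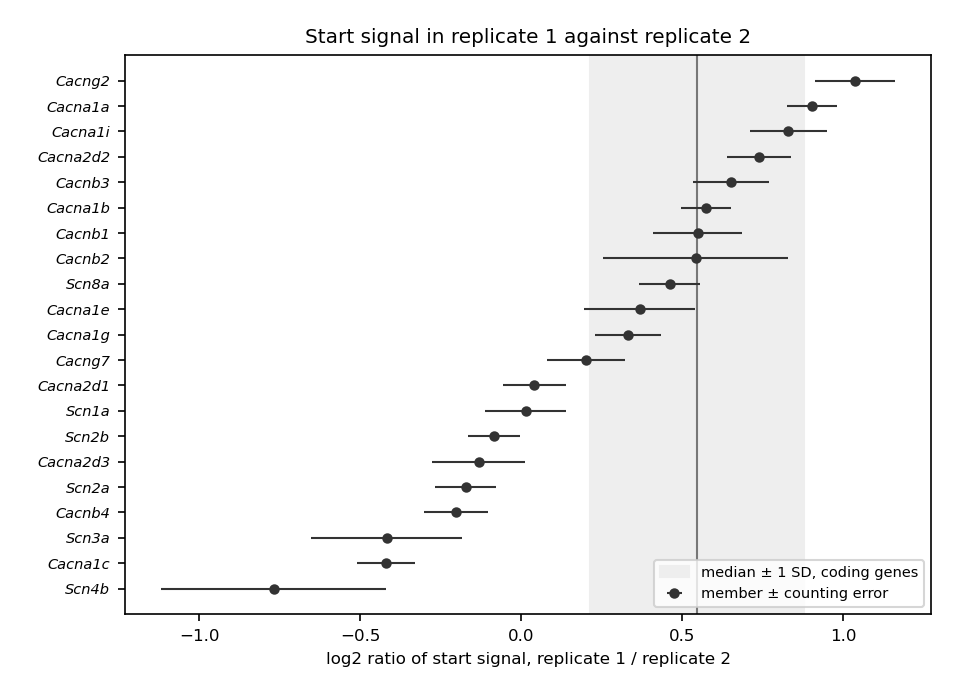
Log2 ratio of the strongest start signal in replicate 1 over replicate 2 (x axis) for 21 of the members open in both, with bars for counting error if 1 step is 1 cut. The grey band spans the median of coding genes, 0.55, ± 1 SD of 0.33. Left of it lie Scn4b at -0.77, Cacna1c at -0.42, Scn3a, Cacnb4, Scn2a, Cacna2d3, Scn2b, Scn1a, Cacna2d1 and Cacng7. Cacng2 at 1.04 and Cacna1a at 0.90 lie right of it. The strongest peaks of Scn4b, Scn2a and Cacnb2 did not overlap between replicates.

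Of 28 partner genes listed for their ties to these channels, 23 (82.1%) had a start peak in both replicates, against 55.9% of all coding genes, and 5 in neither. The highest were Calm3 (11.6 ± 2.33) and Calm2 (9.00 ± 1.63), which encode calmodulin, the calcium sensor bound to the pores, Sptbn4 (10.0 ± 0.202), the spectrin of the axon initial segment, and Itpr1 (7.76 ± 0.732), the calcium release channel of Purkinje cells. All of these were above the highest member. Those without were Fgf11, an FGF homologous factor, Ryr1, the calcium release channel of skeletal muscle, Stac, which binds L-type channels, Kcnma1, the calcium-activated potassium channel, and Rrad, a small GTPase that inhibits calcium channels. Partners averaged 7.95 distal peaks within 50 kb, beside 7.33 for members, against 2.99 in replicate 1 and 3.22 in replicate 2 for all coding genes. The list was chosen with results of these data known.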

How the data were processed

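DNase-seq was measured in 2 libraries of whole cerebellum, biological replicates 1 and 2 of the labels, on mm10 per the labels. The authors deposited for each library 2 peak lists with a signal value per peak (a coverage measure of unstated scale), a table of the FDR (a q-value) of the local cut rate, which lists intervals under 0.05, and footprints, which all carry the value 0.01. Per the deposited description each list came from 1 alignment, with no pooling. Which aligner and callers were used is not given in the sources. The stricter list, in which 100% of peaks held a base with FDR under 0.001, was used, and the longer list was an alternative. Of signals below 100 steps, 100% were whole multiples of 1 step (tolerance 0.05 steps), and counting errors assume that a step is 1 cut, so they are lower limits. Counts and shares cover these libraries only.

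Starts were the 132666 distinct transcript starts of all genes in GENCODE mouse release 21. Overlap meant 1 bp or more. Start signal was that of the strongest start peak, with 0 where there was none. A peak was distal where its middle lay over 1 kb from every start of any gene. In each replicate 2 peaks near members met both definitions. Motifs were matched without mismatch on both strands. Counting was tested on simulated peaks with known places. Tools were Python 3.11.15, numpy 2.4.6, pandas 2.3.3, samtools 1.23.1 and matplotlib 3.10.9.

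Members and lists were chosen with earlier results of these data known. All members were accounted for. Named for distal peaks were those with the 6 highest mean counts and those at 0. The values of 2 members are not reported here, although both stay in all counts, means and medians. Sequences came from the strongest start peak of the leading member of each class with a table entry and 100 bases outside UTRs. The intronic sequences and the runs were chosen after their values were seen. The alternatives were another list, other windows, overlap rules, starts and thresholds, and each replicate left out.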

Additional observations from a re-analysis of the deposited data

How the results depend on the processing

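The count of members with a start peak in both replicates (23) and with a footprint in both (26) stayed within 1.5 times of these values under every alternative run, with 17 to 30 for start peaks and 21 to 30 for footprints. Class counts were less stable, being small. L-type pores, at 1, gave 3 with the longer list, 3 with 2 kb windows and 0 at the start of the longest coding transcript, with 1 to 3 when a replicate was left out. Gamma and TARP genes, at 2, gave 4 with the longer list, and 2 to 4 when a replicate was left out. Sodium pores of other tissues, at 1, gave 2 with the longer list, 0 with the stronger part of each list and 0 at the start of the longest coding transcript. Sodium beta subunits, at 3, gave 1 with 500 bp windows. The mean number of distal peaks per member, 7.33, was 11.8 with the longer list, 4.95 within 25 kb, 10.3 within 100 kb, 3.73 in the stronger part of each list and 4.48 with shared peaks alone, and 7.03 to 7.63 when a replicate was left out. Members whose mean start signal moved by over 1.5 times with 500 bp windows included Scn2b (0.781), Cacna2d1 (1.3), Cacna2d3 (0.410) and Cacnb1 (0.753). Cacna1e (0.50), Scn4b (0) and Cacna1s (0) did too. At coding starts alone they included Cacna1a (2.08), Cacna2d1 (1.3), Cacna2d3 (0.410), Cacnb2 (0) and Cacna2d4 (0). With 2 kb windows Cacna1f rose from 0 to 2.77 and Cacna2d4 from 0.553 to 2.51. The cause of these shifts was not tested beyond what the settings themselves change. Alternatives for the longest coding transcript and for shared peaks were added after seeing the data. No paired analysis was possible because both replicates belong to 1 group. Without read numbers, absence of a weak peak cannot be told apart from too little depth.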
